A study of Homo sapiens with 10 samples.

Results

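The accessible chromatin at the start sites of 10 genes of DNA replication and its checkpoint was described in the leukemia line CCRF-CEM, whose cells are human T lymphoblasts. The assay, ATAC-seq, uses a transposase that cuts and tags open DNA. The genes were CHEK1, ATR, WEE1, RPA1, TOP1, CDC6, CDT1, MCM2, CCNE1 and RRM2. They were chosen by function and not by a threshold on their values, but with earlier results of these data known. The peaks taken were those overlapping 2 kb to either side of 1 listed hg19 start site per gene. They fell into 11 of the 35505 regions made by merging the peaks of all libraries, and all 10 genes had a peak in each of the 10 libraries. The libraries came from an SLFN11 gene knockout line and from its wild-type, SLFN11-positive parent, called parental here. Of each line there is 1 library with prexasertib at 100 nM for each of 2, 4 and 6 h, 1 with camptothecin at 100 nM for 4 h and 1 with the solvent DMSO. There are thus no replicates and no test, and each difference is between single libraries. No source used here gives how long DMSO was applied or whether the knockout line is 1 clone. Per the series record, the raw data of parental cells at 4 h of prexasertib is truncated, and whether the peak list was made from it is not known here. Neither the knockout nor the cell type was checked here, since no annotation of build hg19 was used. SLFN11 is a protein recruited to stressed replication forks.

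A cell copies its DNA once per cycle. CDC6 and CDT1 load the MCM2-7 helicase onto origins before S phase, cyclin E with CDK2 drives entry into S phase, and ribonucleotide reductase, of which RRM2 is a subunit, makes the nucleotides. When forks stall, the RPA complex coats the exposed single strands, the kinase ATR is recruited to it and activates CHK1, the product of CHEK1, and CHK1 and WEE1 hold back the cyclin-dependent kinases. Prexasertib inhibits CHK1, and camptothecin traps topoisomerase I, the product of TOP1, on DNA.

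The promoter sequences of 4 of the genes are shown because their peaks carry the main differences described here: CDC6, RPA1 and CCNE1 had the largest changes in height, and CDT1 and CCNE1 the largest in width. They are RefSeq windows of build GRCh38.p14, from 250 bases before to 50 after the listed start, all on the plus strand, at chr17:40287629-40287928, chr17:1829755-1830054, chr19:29811741-29812040 and chr16:88803539-88803838. Capitals mark the letters searched on both strands. For the E2F type these were TTTGGCG or, as another form of the same motif, TTTCGCG. The CCAAT box was searched by its name, the core of the NRF1 motif as GCATGCGC, and the cyclic AMP response element by the letters TGACGT.
CDC6: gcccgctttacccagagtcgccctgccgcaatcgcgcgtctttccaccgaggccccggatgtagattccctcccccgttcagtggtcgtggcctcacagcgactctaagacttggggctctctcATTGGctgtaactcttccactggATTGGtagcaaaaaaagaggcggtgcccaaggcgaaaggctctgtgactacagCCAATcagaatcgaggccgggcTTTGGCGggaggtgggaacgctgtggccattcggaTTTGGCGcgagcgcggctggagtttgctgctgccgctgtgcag
RPA1: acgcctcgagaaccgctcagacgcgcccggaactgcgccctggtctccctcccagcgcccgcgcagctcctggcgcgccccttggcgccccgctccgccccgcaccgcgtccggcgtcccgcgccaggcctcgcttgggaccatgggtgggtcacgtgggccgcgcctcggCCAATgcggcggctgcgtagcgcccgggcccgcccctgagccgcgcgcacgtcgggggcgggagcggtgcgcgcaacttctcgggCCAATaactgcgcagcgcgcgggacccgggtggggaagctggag
CCNE1: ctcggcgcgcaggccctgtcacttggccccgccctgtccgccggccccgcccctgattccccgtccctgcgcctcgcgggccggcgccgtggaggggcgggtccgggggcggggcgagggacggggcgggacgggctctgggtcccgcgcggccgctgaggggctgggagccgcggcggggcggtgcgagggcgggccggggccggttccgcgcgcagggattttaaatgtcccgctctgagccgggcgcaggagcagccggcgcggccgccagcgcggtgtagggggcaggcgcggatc
CDT1: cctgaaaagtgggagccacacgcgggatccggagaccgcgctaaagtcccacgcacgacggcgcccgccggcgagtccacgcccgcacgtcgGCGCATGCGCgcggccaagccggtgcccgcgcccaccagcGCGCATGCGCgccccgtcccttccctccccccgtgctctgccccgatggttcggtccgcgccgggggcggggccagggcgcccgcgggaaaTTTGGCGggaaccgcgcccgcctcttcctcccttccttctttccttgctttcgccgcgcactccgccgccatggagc

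E2F proteins are transcription factors of genes used at the start of S phase. CDC6 held TTTGGCG at -28 and at 8, counted from the listed start, and CCAAT at -126, -103 and -50. CDT1 held TTTGGCG at -27 and the NRF1 core, on both strands, at 2 places between -158 and -116. MCM2 held TTTCGCG at 3 and 8, where it overlaps itself on the opposite strand, and TGACGT at -59 and -53. Of the 9 genes with an entry in the promoter table, 3 held an E2F type motif, against 3.19% of all 35116 windows. A gene was counted if any of its entries held the letters, while the shares are of single windows. CHEK1 has 3 entries and RRM2 has 2, so the 2 kinds of share are not fully alike. CCAAT stood in 4 of the 9 (CHEK1, RPA1, CDC6 and RRM2), against 34.6% of all windows, the NRF1 core in 1 against 3.05%, and TGACGT in 2 (TOP1 and MCM2) against 7.98%. ATR and CCNE1 held none of these letters. The windows were rich in G and C, from 59.3% in 1 of the 3 CHEK1 entries to 81.0% in CCNE1, against a median of 58.7%. A match of letters is a description and not a site of binding. WEE1 was not in the table.

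The peaks lay at or close to the listed starts, with an exception at CHEK1. The CCNE1 peaks of parental cells with DMSO and after 2 and 4 h ended 25, 11 and 45 bp before the start. Distances from here on run along hg19, negative towards lower coordinates, which is downstream for ATR, the gene on the minus strand. The strongest summit lay between -9 and 77 bp of the start over the 10 libraries at ATR (chromosome 3, 142297668), between -53 and 30 at RPA1 (chromosome 17, 1733273) and between -48 and 32 at MCM2 (chromosome 3, 127317200). It lay somewhat before the start at CDC6 (chromosome 17, 38444146), from -180 to -84, at TOP1 (chromosome 20, 39657462), from -169 to -68, at WEE1 (chromosome 11, 9595228), from -208 to -116, and at CCNE1 (chromosome 19, 30302901), from -190 to -80. At these genes the strongest point of access thus lay close to the start in every library.

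At CHEK1 (chromosome 11, 125495036) the summit lay from 687 to 839 bp downstream of the listed start, and no peak covered that start. RefSeq (GRCh38.p14) lists 3 starts for CHEK1 that lie 1088, 1093 and 1220 bases inside its gene record, and an antisense start, of LOC118567325, 330 bases from the nearest of them. At CDT1 (chromosome 16, 88870186) the strongest summit moved between -438 and 109, and 4 of 10 libraries had more than 1 summit. RRM2 (chromosome 2, 10262735) had its main summit between -38 and 240 and in all 10 libraries a second, separate peak of 374 to 462 bp whose summits lay about 2.1 kb upstream, between -2228 and -2059. RPA1 and MCM2 have an opposite gene, SMYD4 and TPRA1, starting 103 and 180 bases away in GRCh38.p14, so that their peaks cannot be assigned to 1 of the genes.

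The deposited fold is the height at the summit plus 1, over the background around it plus 1, in the same library, so it does not grow with the length of a gene. Over the 10 libraries its median was 9.23 at ATR, 9.03 at CDC6, 8.53 at WEE1, 8.45 at RPA1, 8.24 at TOP1, 7.85 at MCM2, 7.34 at CHEK1, 6.50 at CCNE1, 5.15 at RRM2 and 3.41 at CDT1. Neighbours in this order had overlapping ranges, except RRM2, at 4.35 to 7.12, and CDT1, at 2.78 to 4.07. CDT1 was thus the lowest in each of the 10 libraries, with between 0.379% and 4.83% of the 11603 regions called in all libraries lower still.

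The order differed by height alone. A whole number of fragments over the summit, the pileup, was solved from the fold and the p-value of each summit. TOP1 had the highest pileup of the 10 genes in every library, from 79 to 189. CDT1, with 26 to 50, was close to CHEK1, with 21 to 53, while the background around the CDT1 summit was 7.67 to 14.7 and that around CHEK1 2.89 to 5.85. The background was as high or higher at TOP1, at 9.39 to 17.7, and at RRM2, at 9.81 to 20.3, which had higher folds.

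**Figure D1:**
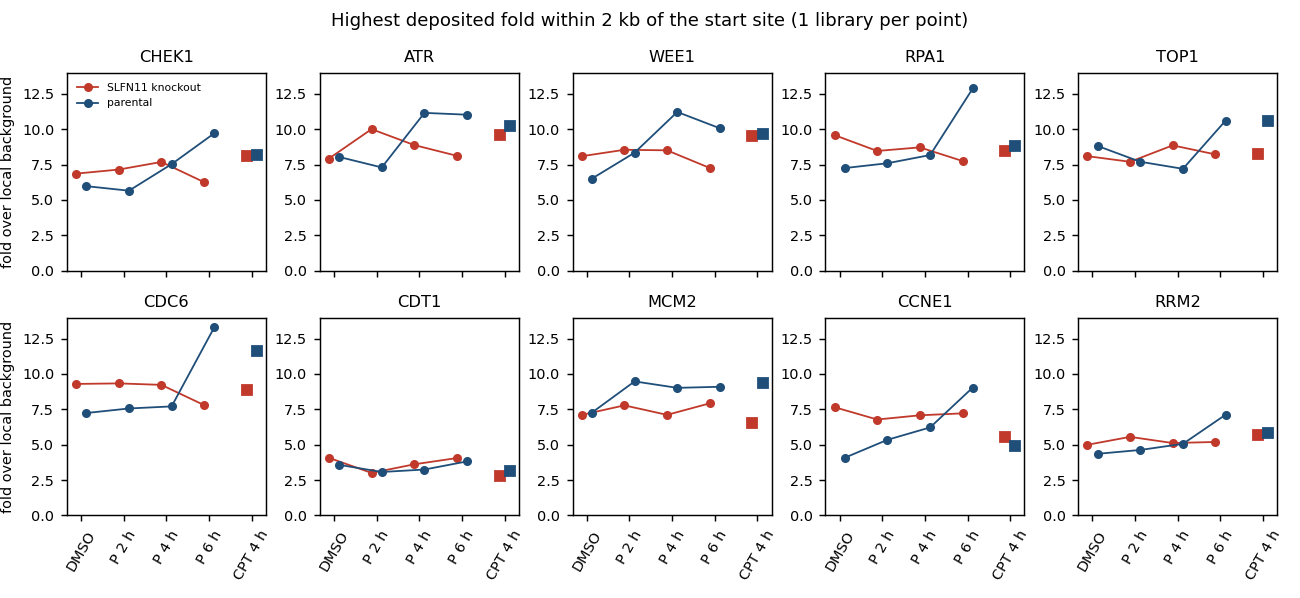
Highest deposited fold (linear, over the local background of the library) of each gene, by condition. P is prexasertib, CPT camptothecin. Red points are SLFN11 knockout libraries, blue points parental libraries, 1 library each with no error bar, and lines join DMSO and the prexasertib times. The parental 6 h points of CDC6 and RPA1, at 13.3 and 12.9, are the highest shown, and CDT1 stays between 2.78 and 4.07.

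In parental cells the peaks of these genes were higher after 6 h of prexasertib. The fold was above that with DMSO at all 10 genes and past 1.5-fold at 6 of them, where 36.9% of all 14271 regions called in both libraries were past 1.5-fold higher. The 6 were CCNE1, CDC6, RPA1, RRM2, CHEK1 and WEE1. The median log2 change was 0.66 over the genes and 0.46 over the regions, so the regions as a whole were higher too. After subtraction of that 0.46 only CCNE1 was past 1.5-fold.

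Height was also expressed as the pileup over the genome-wide background of the library, with a 95% interval from the counts. This interval covers counting error only and takes fragments as independent, which amplified copies are not. By this measure 9 of 10 genes had an interval wholly above no change after 6 h. The exception was CDT1, at 1.54-fold (0.942 to 2.54). Across all regions the median log2 height change was 0.96, and over the genes 1.13. Of the regions 90.2% were above 0 in height, as were all 10 genes.

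Among the licensing factors, CDC6 had the largest parental differences in height. In knockout cells the CDC6 fold was 9.29 with DMSO, 9.33, 9.23 and 7.80 with prexasertib at 2, 4 and 6 h, and 8.84 with camptothecin. In parental cells it was 7.24 with DMSO, 7.56, 7.71 and 13.3 at these times, and 11.6 with camptothecin. The parental 6 h and camptothecin libraries thus stand above the other 8, and in knockout cells the 6 h library is the lowest. The parental pileup was 108 (88.6 to 130) after 6 h and 34 (23.6 to 47.5) with DMSO, on a peak at 38443798 to 38444419 after 6 h and 38443854 to 38444318 with DMSO. The height ratio was 3.40 (2.30 to 5.16) after 6 h and 2.76 (1.83 to 4.24) after camptothecin.

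MCM2 encodes a subunit of the replicative helicase. The MCM2 fold of knockout cells was 7.11 with DMSO, then 7.78, 7.11 and 7.92 with prexasertib at 2, 4 and 6 h, and 6.51 with camptothecin. That of parental cells was 7.27 with DMSO, 9.47, 9.02 and 9.09 at these times, and 9.37 with camptothecin. The parental treated libraries were all above the parental DMSO library. The knockout fold was below the parental one in all 5 conditions, by a log2 of only -0.03 with DMSO. The share of regions with this order was not counted. By height the knockout was 1.03 times the parental one at 2 h (0.713 to 1.49). With DMSO it was 0.95 times (0.594 to 1.51) and at 4 h 0.766 times (0.525 to 1.12), with intervals that include 1. The interval lay below 1 at 6 h, at 0.658 (0.461 to 0.938), and after camptothecin, at 0.487 (0.323 to 0.726). The median log2 height ratio of all regions was -0.47 and -0.57 there. Against DMSO the height ratio in parental cells was 1.40 at 2 h with an interval that includes 1, and 1.88 (1.27 to 2.83) at 6 h.

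CDT1, which loads the helicase with CDC6, differed from DMSO by less than 1.5-fold in the deposited fold of every treated library. Knockout cells had CDT1 folds of 4.07 with DMSO, of 3.00, 3.61 and 4.05 with prexasertib at 2, 4 and 6 h, and of 2.78 with camptothecin. Parental cells had 3.57 with DMSO, 3.07, 3.24 and 3.82 at these times, and 3.11 with camptothecin. These values overlap between lines and treatments, but the knockout height after camptothecin was 0.562 times that with DMSO (0.335 to 0.929). Of all regions only 27.3% were above 0 in height in that comparison.

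RPA1, the large subunit of the complex that coats single-stranded DNA, was highest in parental cells after 6 h of prexasertib. In knockout cells the RPA1 fold was 9.58 with DMSO, 8.46, 8.72 and 7.75 with prexasertib at 2, 4 and 6 h, and 8.44 with camptothecin. In parental cells it was 7.26 with DMSO, 7.60, 8.18 and 12.9 at these times, and 8.80 with camptothecin. The parental 6 h library is alone at the top. In knockout cells the 6 h library is the lowest, and the DMSO library, which all treated ones share as control, is the highest. The parental height ratio was 3.22 (2.17 to 4.86) after 6 h and 1.81 (1.17 to 2.84) after camptothecin, with overlapping intervals. RPA1 and CDC6 both lie on chromosome 17, where the median log2 fold change of the regions after 6 h was 0.56.

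Of the checkpoint kinases, CHEK1 encodes the target of prexasertib. The CHEK1 fold of knockout cells was 6.86 with DMSO, then 7.15, 7.69 and 6.26 with prexasertib at 2, 4 and 6 h, and 8.12 with camptothecin. That of parental cells was 5.98 with DMSO, 5.65, 7.53 and 9.71 at these times, and 8.14 with camptothecin. Its parental height ratio was 2.104 (1.30 to 3.48) after 6 h and 2.05 (1.26 to 3.41) after camptothecin, and in knockout cells both intervals included 1, at 0.800 (0.474 to 1.35) and 1.06 (0.642 to 1.76).

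WEE1 and ATR had their highest fold at 4 h, in the parental library with truncated raw reads, but at ATR the 6 h fold was close. Knockout cells had WEE1 folds of 8.09 with DMSO, of 8.55, 8.51 and 7.26 with prexasertib at 2, 4 and 6 h, and of 9.49 with camptothecin. Parental cells had 6.51 with DMSO, 8.34, 11.2 and 10.1 at these times, and 9.69 with camptothecin. The WEE1 fold was above that with DMSO in each treated library of both lines except the knockout 6 h library. The height interval included no change, however, in every treated knockout library and in the parental 2 h library. In knockout cells the ATR fold was 7.92 with DMSO, 10.01, 8.88 and 8.12 with prexasertib at 2, 4 and 6 h, and 9.58 with camptothecin. In parental cells it was 8.04 with DMSO, 7.30, 11.16 and 11.03 at these times, and 10.24 with camptothecin. Against DMSO the parental log2 fold change at 4 and 6 h was 0.47 and 0.46 at ATR and 0.79 and 0.63 at WEE1, where the median of all regions was 0.22 and 0.46. Relative to the regions both genes thus stood higher in fold in the 4 h library. In height over DMSO ATR was higher at 6 h, with ratios of 1.77 (1.155 to 2.74) at 4 h and 2.14 (1.44 to 3.23) at 6 h. Those of WEE1 were 2.13 (1.48 to 3.11) and 2.08 (1.45 to 3.01), and the intervals overlap at both genes. The share of common regions with a lower fold was 97.0% at 4 h and 78.1% at 6 h for ATR, and 97.2% and 65.2% for WEE1. Of all pairs of the 10 genes, WEE1 and ATR were the most alike over the libraries (Pearson r = 0.68 of the log2 fold less the library median, n = 10, which share depth within a library).

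TOP1 encodes the target of camptothecin. The TOP1 fold of knockout cells was 8.10 with DMSO, then 7.70, 8.86 and 8.22 with prexasertib at 2, 4 and 6 h, and 8.26 with camptothecin. That of parental cells was 8.82 with DMSO, 7.70, 7.20 and 10.61 at these times, and 10.60 with camptothecin. In fold no treated library was past 1.5-fold at this gene. In height the parental ratio was 2.23 (1.72 to 2.89) after 6 h and 1.93 (1.48 to 2.52) after camptothecin. The background around the summit, by which the fold divides, was 16.9 and 13.7 there and 9.43 with DMSO.

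RRM2 was higher with both drugs in parental cells, with height ratios of 2.67 (1.89 to 3.83) after 6 h and 2.57 (1.81 to 3.71) after camptothecin. Knockout cells had RRM2 folds of 4.99 with DMSO, of 5.55, 5.12 and 5.19 with prexasertib at 2, 4 and 6 h, and of 5.66 with camptothecin. Parental cells had 4.35 with DMSO, 4.63, 5.06 and 7.12 at these times, and 5.84 with camptothecin. The separate upstream peak went the same way in parental cells, with 4.46 after 6 h and 3.95 after camptothecin against 2.94 with DMSO.

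CCNE1, which encodes cyclin E1, had the largest parental change in fold and height at 6 h. In these measures it also had the largest difference between the lines with DMSO. Both rest on the parental DMSO library, where its peak was weak. The −log10 q-value there was 5.60, under the stricter limit of 10 used below. That peak was narrower than all but 2.21% of the common regions. The CCNE1 fold of knockout cells was 7.65 with DMSO, then 6.78, 7.08 and 7.21 with prexasertib at 2, 4 and 6 h, and 5.57 with camptothecin. That of parental cells was 4.08 with DMSO, 5.34, 6.22 and 9.04 at these times, and 4.93 with camptothecin. The parental values are higher at each later time of prexasertib, and knockout cells are highest with DMSO. The parental pileup was 69 (53.7 to 87.3) after 6 h and 20 (12.2 to 30.9) with DMSO, a height ratio of 3.70 (2.22 to 6.42). After camptothecin the parental height ratio was 1.87 (1.04 to 3.43). In knockout cells the height after camptothecin was 0.633 times that with DMSO (0.407 to 0.975), where only 27.3% of all regions were above 0 in height.

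**Figure D2:**
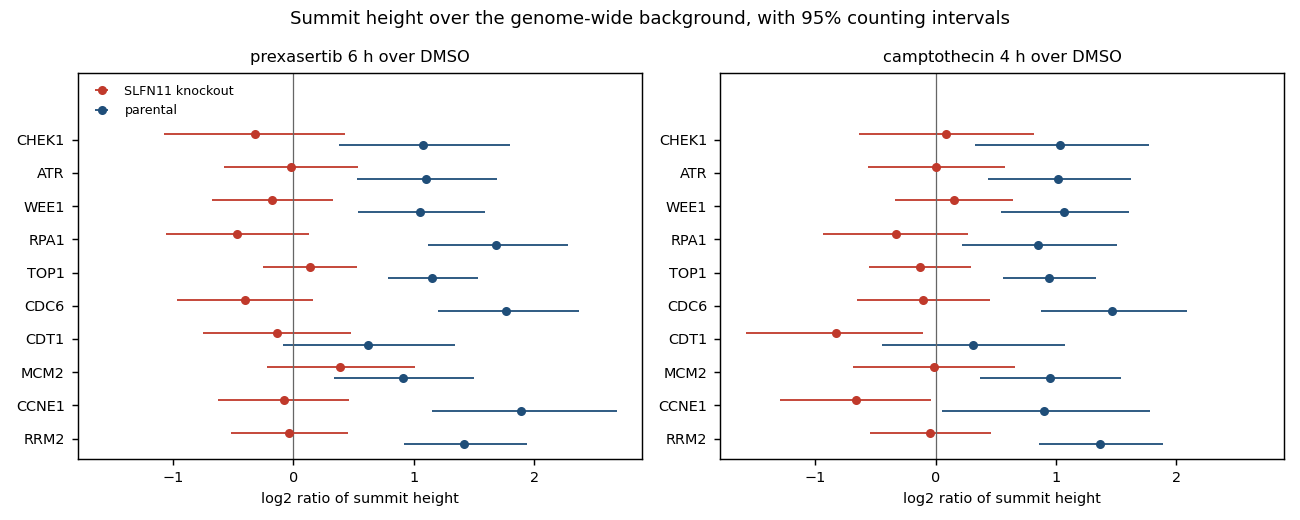
Log2 ratio of summit height (pileup over the genome-wide background) for 6 h of prexasertib and 4 h of camptothecin, each over DMSO, with 95% intervals from the counts of 1 library each. Red is SLFN11 knockout, blue parental. In parental cells 9 of 10 intervals lie above 0 in each panel, and in knockout cells none does. Of all regions, 90.2% (prexasertib) and 91.6% (camptothecin) had a parental height ratio above no change.

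At the earlier prexasertib times the parental change was smaller. After 4 h the fold was past 1.5-fold at 2 genes, WEE1 and CCNE1, against 13.2% of regions, with a median log2 change of 0.26 over the genes and 0.22 over the regions. In height 6 of 10 intervals lay above no change at 4 h, where the median log2 height change was 0.74 over the genes and 0.59 over the regions, with 89.3% of regions above 0. After 2 h no gene was past 1.5-fold, against 3.34% of regions, and all 10 height intervals included no change.

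With camptothecin in parental cells 9 of 10 genes were higher in fold, but CDC6 alone was past 1.5-fold, against 21.8% of regions. The median log2 change was 0.36 over the genes and 0.33 over the regions. In height 9 of 10 intervals lay above no change, with CDT1 again the exception at 1.24 (0.735 to 2.11). The median log2 height change was 0.98 over the genes and 0.78 over the regions. Above 0 in height were all 10 genes and 91.6% of the regions.

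In knockout cells no gene was past 1.5-fold in fold under any treatment, in either direction. The median log2 changes over the genes were 0.03, 0.02 and -0.05 after prexasertib for 2, 4 and 6 h and -0.02 after camptothecin. For regions past 1.5-fold in the direction of the genes' median the shares were 3.51% and 3.2% higher at 2 and 4 h, and 2.19% and 4.72% lower at 6 h and after camptothecin. In height 1 interval lay above no change, that of MCM2 at 2 h, and 2 lay below it, those of CDT1 and CCNE1 after camptothecin. Of the regions 61.4% were above 0 in height at 2 h and 27.3% after camptothecin, with median log2 changes of 0.09 and -0.20.

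The log2 fold change on treatment was lower in knockout than in parental cells at all 10 genes after prexasertib for 6 h and after camptothecin. The median difference of the log2 fold changes, knockout minus parental, was -0.72 over the genes and -0.43 over all regions after 6 h, and -0.35 and -0.41 after camptothecin. After 4 h it was -0.24 and -0.17, with 9 of 10 genes below 0, and after 2 h -0.14 and -0.01, with 6 of 10 below 0. Over all regions 15.7% and 16.2% had a difference above 0 after 6 h and camptothecin, so most regions went the same way. The difference between the lines has no replicate check.

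**Figure D3:**
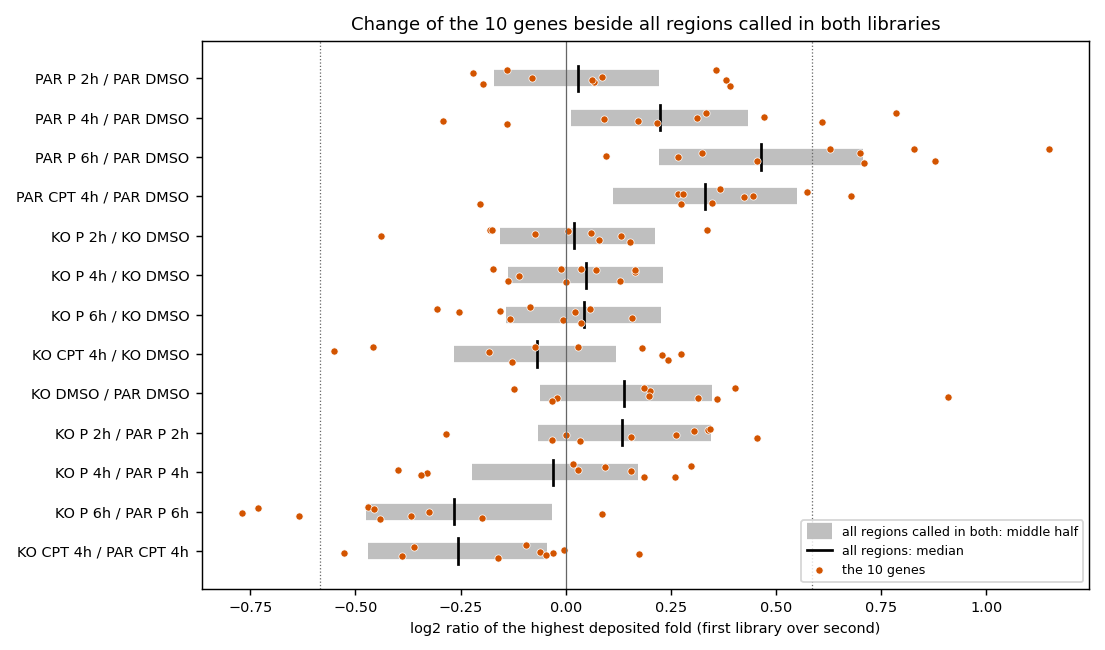
Log2 ratio of the highest deposited fold, first library over second, for 13 comparisons (KO, SLFN11 knockout; PAR, parental; P, prexasertib; CPT, camptothecin). Orange points are the 10 genes, grey bars the range between the quartiles and black lines the median of all regions called in both libraries; dotted lines mark 1.5-fold. At 6 h in parental cells all 10 genes lie above 0 and 6 lie past 1.5-fold, the farthest being CCNE1 at 1.15.

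Knockout and parental cells were then compared under the same condition. With DMSO only CCNE1 was past 1.5-fold, at a fold of 7.65 in knockout and 4.08 in parental cells, against 8.32% of regions. Its height ratio was 2.82 (1.66 to 4.96), the largest of the 10, and those of CDC6, at 1.72 (1.10 to 2.71), and RRM2, at 1.48 (1.01 to 2.20), also lay above 1. The median log2 fold was 0.20 over the genes and 0.14 over the regions. In height 9 of the 10 genes and 85.0% of the regions were higher in the knockout. After 2 h of prexasertib no gene was past 1.5-fold higher, against 8.85% of regions, and after 4 h none was, against 3.38%.

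After 6 h the order was turned. The knockout fold was lower at 9 of 10 genes, and 22.3% of regions were above 0 in fold. It was past 1.5-fold lower at CDC6, RPA1 and CHEK1, against 15.3% of regions. The median log2 fold was -0.45 over the genes and -0.27 over the regions. In height 8 of 10 intervals lay below no change, and the median log2 ratio was -0.81 over the genes and -0.47 over the regions, of which 20.4% were above 0. After camptothecin 9 of 10 were lower in fold, and 20.9% of regions were above 0. None was past 1.5-fold lower, against 15.5% of regions, and the median was -0.08 over the genes and -0.26 over the regions. In height 6 of 10 intervals lay below no change after camptothecin. The median log2 height ratio was -0.62 over the genes and -0.57 over the regions, of which 14.2% were above 0. CDT1 after 6 h and CCNE1 after camptothecin were the genes not lower in fold, at a log2 fold of 0.09 and 0.18.

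In width, the knockout peaks were wider at 9, 9, 7, 9 and 8 of the 10 genes with DMSO, after 2, 4 and 6 h and after camptothecin. In the same order 72.8%, 87.2%, 73.1%, 62.7% and 44.0% of all regions were wider in the knockout. The median log2 width ratio over the genes was 0.36 at 2 h and 0.16 at 4 h, below that of the regions, at 0.40 and 0.21. In the other conditions it was above that of the regions. It was 0.39 against 0.21 with DMSO, 0.29 against 0.11 at 6 h and 0.18 against -0.05 after camptothecin. In all 5 conditions the knockout peak was wider at 4 genes, WEE1, MCM2, CDT1 and CCNE1, against 18.5% of the 11603 regions called in all libraries. The genome-wide background pileup, which stands for depth here, was, in that order of conditions, 1.60, 2.1, 1.85, 1.99 and 1.74 in knockout against 1.63, 1.48, 1.33, 1.52 and 1.45 in parental cells. The part of depth in the widths was not tested. With DMSO the backgrounds were close.

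CCNE1 peaks were the narrowest of the 10 genes in parental cells after 2 and 4 h and after camptothecin. In knockout cells CCNE1 peaks measured 775 bp with DMSO, 993, 1100 and 869 bp at 2, 4 and 6 h and 571 bp with camptothecin. The parental peaks measured 232 bp with DMSO, 265, 225 and 630 bp at these times and 287 bp with camptothecin. In parental cells the 6 h peak was the widest, and all knockout libraries but that with camptothecin were above every parental one. With DMSO the peak ran from 30302334 to 30303108 in knockout cells and from 30302645 to 30302876 in parental cells, where it ended before the listed start.

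CDT1 peaks were wider with treatment in parental cells. The knockout peaks measured 721 bp with DMSO, 950, 1021 and 917 bp at 2, 4 and 6 h and 699 bp with camptothecin. Those of parental cells measured 210 bp with DMSO, 391, 643 and 675 bp at these times and 615 bp with camptothecin. Each treated parental peak was wider than the DMSO one with no higher fold except at 6 h, and the added bases lay upstream of the start, where its edge lay at -162 bp with DMSO.

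WEE1 and MCM2 were wider in the knockout mainly on 1 side each. WEE1 measured 803 bp in knockout cells with DMSO, 1132, 1000 and 1301 bp at 2, 4 and 6 h and 946 bp with camptothecin. In parental cells these widths were 573, 651, 608, 617 and 678 bp. The widths of the 2 lines do not overlap over these conditions, which are not replicates. How many of all regions are separated in this way was not counted. The added bases at WEE1 lay mainly downstream of the start. MCM2 measured 478 bp in knockout cells with DMSO, 1032, 835 and 795 bp at 2, 4 and 6 h and 711 bp with camptothecin. In parental cells they were 446, 578, 565, 530 and 543 bp. The knockout DMSO peak lies within the parental range, and the 4 treated knockout peaks lie above it, with their added bases mainly upstream.

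**Figure D4:**
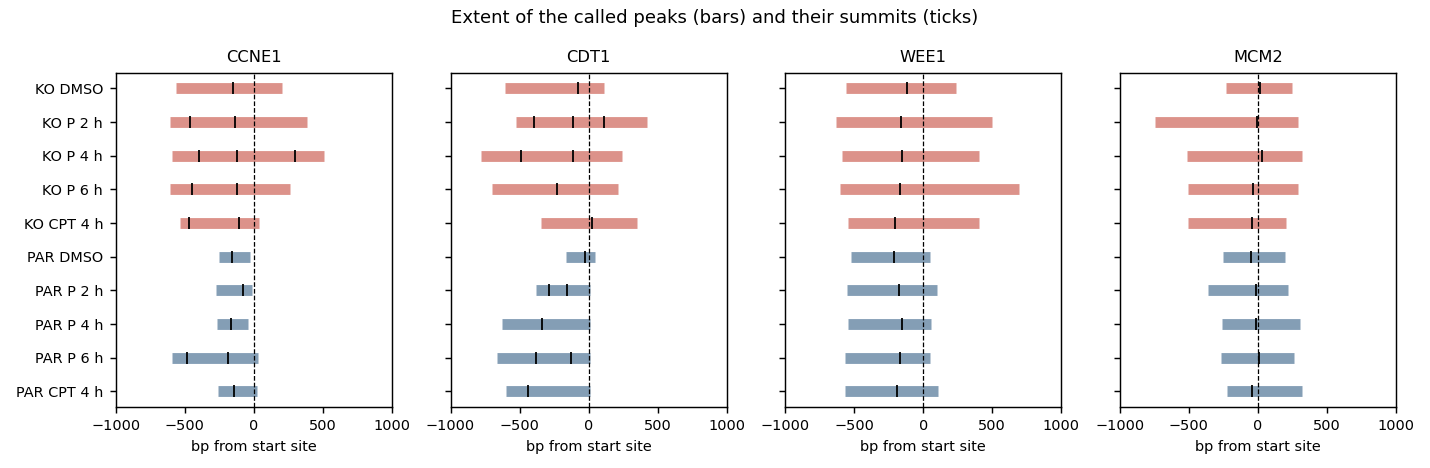
Extent of the peaks (bars) and their summits (ticks) in bp from the listed start (dashed) at 4 genes, knockout libraries in red above parental libraries in blue, 1 library per row. The WEE1 bars of all 5 knockout libraries reach farther to the right than any parental bar, and the CCNE1 bars of 4 parental libraries are 225 to 287 bp long. The share of all regions with such a separation was not counted.

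On treatment the counts past 1.5-fold wider were as follows in parental cells. After 2 h it was 1 gene, CDT1, against 10.0% of regions, after 4 h it was 2, CDT1 and RPA1, against 14.7%, and after 6 h it was 4, CDT1, CCNE1, TOP1 and RPA1, against 22.6%. After camptothecin it was 2, CDT1 and CDC6, against 22.5%. CDT1 is in each of these counts, but they share 1 DMSO library, in which its peak was narrower than all but 0.595% of the common regions.

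In knockout cells 2 genes were past 1.5-fold wider after 2 h, MCM2 and RPA1, against 19.1% of regions, and the same 2 after 4 h, against 12.5%. After 6 h it was 3, RPA1, MCM2 and WEE1, against 15.5%, and after camptothecin 1, RPA1, against 7.78%, while CDC6 was past 1.5-fold narrower. RPA1 measured 475 bp in knockout cells with DMSO, 717, 847 and 881 bp at 2, 4 and 6 h and 837 bp with camptothecin. In parental cells it measured 510 bp with DMSO, 584, 780 and 837 bp at these times and 741 bp with camptothecin. All treated libraries of a line are set against the same DMSO library, in which RPA1 had its narrowest peak in both lines and its highest fold in knockout cells.

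Between the lines the genes past 1.5-fold wider in the knockout were 3 with DMSO (CDT1, CCNE1 and CDC6), against 23.1% of regions, and 4 after 2 h (CCNE1, CDT1, MCM2 and WEE1), against 36.3%. They were 3 after 4 h (CCNE1, WEE1 and CDT1), against 23.4%, 1 after 6 h (WEE1), against 19.8%, and 1 after camptothecin (CCNE1), against 11.6%. The shares of the genes are near those of the regions in most of these comparisons, and with 10 genes 1 gene more or less moves a share by 10 percentage points.

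**Figure D5:**
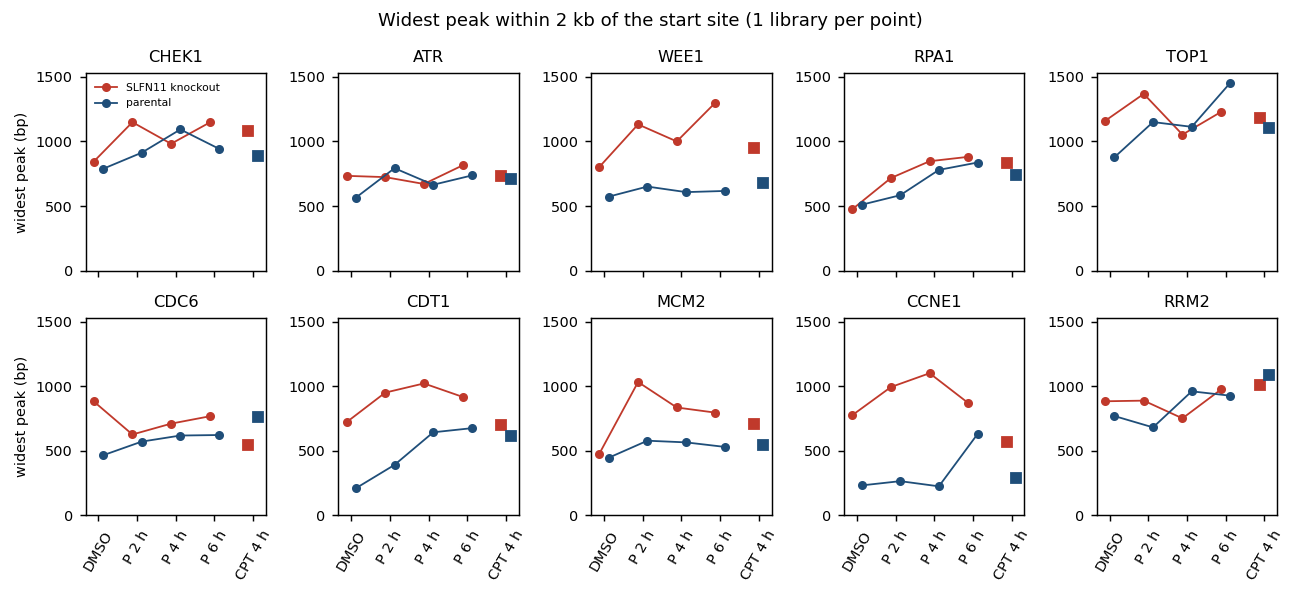
Width in bp of the widest peak of each gene, by condition, from 0. P is prexasertib, CPT camptothecin. Red points are SLFN11 knockout libraries, blue points parental libraries, 1 library each with no error bar, and lines join DMSO and the prexasertib times. The 5 knockout points of WEE1 (803 to 1301 bp) lie above the 5 parental points (573 to 678 bp). The share of all regions so separated was not counted.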

How the data were processed

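ATAC-seq gave 10 libraries, 1 per group, each deposited as 1 peak list on hg19. The submitters' processing notes name MACS2 2.1.2, Picard 2.9.2, SAMtools 1.8, BWA 0.7.17, Trimmomatic 0.39 and Trim Galore 0.6.2. Parameters, read shifting and removal of duplicates are not given in these sources. The deposited fold is the ratio of summit to local background in the same library, with 1 added to both, which lowers the fold most where the background is low, and the deposited −log10 p and −log10 q-value belong to the summit. The deposited score is the −log10 q times 10 and was not used. No read counts were used, and the background pileup stands for depth.

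A gene took the highest fold, the summits and the widest peak overlapping 2 kb to either side of its start site by at least 1 bp. Peaks on chromosomes 1 to 22 and X were merged into regions where they shared at least 1 bp, and ratios were taken over regions called in both libraries. Pileups were solved from fold and p to within 0.001 of the deposited −log10 p in 98.7% to 99.7% of summits per list, and at all 10 genes. Single pileups have exact Poisson intervals, and ratios exact conditional ones, at 95% confidence. The smallest background of a list was taken as genome-wide. The steps were tested on simulated data (Python 3.11.15, scipy 1.17.1, pandas 2.3.3). All 10 genes are named, by rule. The genes and measures were chosen with earlier results of these data known. Other pathway genes and cell type markers were not analysed here, since the annotation used is on GRCh38.p14. The alternatives were other measures of height, centring, thresholds and windows.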

Additional observations from a re-analysis of the deposited data

Results flagged for a closer look

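Several genes were past 1.5-fold higher in parental cells and had a log2 fold change below 0, short of 1.5-fold, in knockout cells. With 1 library per group these differences were not tested. The regions as a whole went the same way, with a median log2 fold change after 6 h of 0.04 in knockout and 0.46 in parental cells. Knockout minus parental, the change was above 0 in 33.0% of regions after 4 h, 15.7% after 6 h and 16.2% after camptothecin. After subtraction of the parental median of the regions only CCNE1 at 6 h was past 1.5-fold. After 6 h of prexasertib the log2 fold change at CHEK1 was -0.13 in knockout and 0.70 in parental cells. At WEE1 it was -0.16 in knockout and 0.63 in parental cells, and at RPA1 -0.31 in knockout and 0.83 in parental cells. CDC6 had -0.25 in knockout and 0.88 in parental cells, and CCNE1 -0.085 in knockout and 1.15 in parental cells. After 4 h CCNE1 had -0.11 in knockout and 0.61 in parental cells. After camptothecin CDC6 had -0.072 in knockout and 0.68 in parental cells. The counting interval of the height ratio in knockout cells includes no change in each of these cases.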

How the results depend on the processing

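No paired analysis was possible because each group has 1 library, with no replicate numbers to pair. The 2 lines are matched only over 5 different conditions, and the counts over these are descriptions. All 10 genes kept a peak in every library with windows of 1 and 5 kb, with a stricter overlap and without the parental 4 h library. With a −log10 q of at least 10 this count was 7. Counts past 1.5-fold did not move beyond 1.5 times with windows of 1 or 5 kb. By height over the genome-wide background the counts in parental cells were 7 at 4 h, 10 at 6 h and 9 after camptothecin. The median of all regions was past 1.5-fold (log2 0.585) there too, at log2 0.59, 0.96 and 0.78. In knockout cells the counts by height were 1 at 2 h and 2 (lower) after camptothecin. Between the lines they were 4 with DMSO, 3 at 2 h, and 8 and 5 (lower) at 6 h and after camptothecin. By pileup alone the counts were 9 after camptothecin in parental cells, and 3, 1 and 1 (lower) at 2 h, 4 h and after camptothecin in knockout cells. Between the lines they were 3, 9, 3 and 2 (lower) with DMSO, at 2 h, at 4 h and after camptothecin. The median region was past 1.5-fold by pileup after camptothecin in parental cells (log2 0.61) and between the lines at 2 h (0.86). Shares of regions past the threshold by height, by pileup, after centring or at 2-fold were not counted. At 6 h in knockout cells the median log2 change over the genes was 0.21 by pileup, with 1 gene past 1.5-fold higher, and -0.05 by fold, with 0. Centred on the median of all regions they were 0, 1 and 0 in parental cells at 4 h, 6 h and after camptothecin, and 0 between the lines at 6 h. At 2-fold they were 0, 1 and 0 in parental cells at 4 h, 6 h and after camptothecin, and 0 between the lines with DMSO and at 6 h. With a −log10 q of at least 10, 1 gene was called at 4 h in parental cells and 0 between the lines with DMSO, of 8 left.

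For width, centring gave 1, 2 and 1 in parental cells at 4 h, 6 h and after camptothecin, and 1 and 2 in knockout cells at 2 h and after camptothecin. Between the lines it turned the genes' median at 2 and 4 h to below that of all regions, with 2 and 1 genes past 1.5-fold. With the stricter q the counts were 0, 1, 2 and 1 in parental cells at 2, 4 and 6 h and after camptothecin, and 1 between the lines with DMSO. No gene called in fold changed sign under the alternatives run. The counts thus depend on the measure of height, and the cause was not tested. With 1 library per group no measure gives a spread between replicates.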
